A study of Mus musculus with 6 samples.

Results

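Collagen chain genes were taken as the rows of the count table named Col, a number, a and a number, with at least 10 counts summed over the 6 libraries. Of 44 such rows, 36 reached this minimum, out of 46095 genes in the table, and 8 did not. Of the 36 chains, 30 had enough counts to be tested. RNA had been sequenced from renal primary tubular epithelial cells (PTECs) freshly isolated from 10-week-old mice in a C57 background, with 3 libraries (replicates 1, 2 and 4) under the label VHL-KO and 3 (replicates 2, 3 and 4) carrying VHL-KO;SETD2-KO as theirs. Mice of both groups carried floxed VHL and a Cre transgene under the Cdh16 (Ksp) promoter, which is active in renal tubules. The genotype that deletes VHL in cells with Cre is thus common to all libraries. How much of the RNA came from cells that had lost VHL was not tested. The second group carried floxed Setd2 in addition, and no group with intact VHL is analysed here. VHL is the subunit of a ubiquitin ligase that marks hypoxia-inducible factors for breakdown, and Setd2 is the enzyme that places the third methyl group on lysine 36 of histone H3. The comparison asks whether transcripts of the chains that build the renal matrix differ when Setd2 is lost on top of VHL, the study's subject being renal fibrosis.

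A collagen is a triple helix of chains that are folded and hydroxylated in the endoplasmic reticulum, secreted, trimmed and cross-linked. Fibrillar collagens, such as types I, III and V, form the interstitial fibres laid down by fibroblasts and pericytes and are the matrix that accumulates in a fibrotic kidney. Type IV collagen forms sheet-like networks in basement membranes, together with the proteoglycans of types XV and XVIII. A type IV network of Col4a1 and Col4a2 chains is found under almost all epithelia and vessels, and another, of Col4a3, Col4a4 and Col4a5 chains, is made by podocytes in the mature glomerular basement membrane.

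Totals ranged from 11168552 to 17883466 counts per library, of which 0.146% to 0.255% lay on the 36 chains. The library labelled VHL-KO replicate 4 stood apart from the others. Relative to VHL-KO replicates 1 and 2, its median gene was lower by a log2 value of -2.27 for transcripts under 45% GC and higher by 1.74 for those over 60% GC. By length, the median was 1.05 for transcripts under 2000 bases and -1.71 for those over 8000 bases, the class of 7 of the tested chains. The common dispersion of the edgeR fit was 0.272 with it and 0.078 without it. Xist, in VHL-KO;SETD2-KO replicate 3, stood at 658 CPM and 4 Y-linked genes at 0.0562 CPM together, whereas in each of the other 5 libraries Xist was at most 0.277 CPM and the Y-linked genes were at 24.3 to 206 CPM. Setd2 itself stood at 71.3, 73.8 and 12.3 CPM in VHL-KO replicates 1, 2 and 4 and at 79.5, 57.3 and 89.5 CPM in VHL-KO;SETD2-KO replicates 2, 3 and 4, so that its counts were not lower under the label that names its deletion, and counts over a whole gene do not show whether a floxed part is missing. Vhl stood at 11.8 to 25.8 CPM over all libraries. Libraries are therefore called by their labels throughout, and results that rest on VHL-KO replicate 4 are given with and without it. Markers of the proximal tubule were abundant in every library, with a summed level of 4941 to 21870 CPM over 8 genes. Podocyte markers (7 genes, 1514 to 5097 CPM) and endothelial markers (7 genes, 1510 to 5629 CPM) were also present in every library, and no gene of these lists was at 0 in any library. In bulk RNA of this kind, fewer cells of a type and less RNA per cell cannot be told apart.

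The 6 type IV genes lie in head-to-head pairs on opposite strands, and the windows from which each pair is transcribed are shown because the ratios within pairs are compared further on. In the GENCODE annotation of GRCm38, Col4a1 (chr8:11198423-11312826, minus strand) and Col4a2 (chr8:11312805-11449287, plus strand) overlap at their starts, and their exons share 22 bases. Col4a4 (chr1:82448423-82586849, minus strand) and Col4a3 (chr1:82586921-82722059, plus strand) start 72 bases apart. Col4a6 (chrX:141165403-141474076, minus strand) and Col4a5 (chrX:141475385-141689234, plus strand) start 1309 bases apart. The windows are from RefSeq's promoter table for GRCm38.p6 and run 5′ to 3′ on the strand of the gene named, with the start site at position 251 of 300. Capitals mark GC boxes (GGGCGG or CCGCCC) and CCAAT boxes (CCAAT or ATTGG). The Col4a2 window covers chr8:11312555-11312854 on the plus strand, and the start of Col4a1 falls at position 272 of it. The Col4a4 window covers chr1:82586800-82587099 on the minus strand, and the start of Col4a3 falls at position 179. The other windows are chrX:141474027-141474326 on the minus strand for Col4a6 and chrX:141475169-141475468 on the plus strand for Col4a5.
Col4a2: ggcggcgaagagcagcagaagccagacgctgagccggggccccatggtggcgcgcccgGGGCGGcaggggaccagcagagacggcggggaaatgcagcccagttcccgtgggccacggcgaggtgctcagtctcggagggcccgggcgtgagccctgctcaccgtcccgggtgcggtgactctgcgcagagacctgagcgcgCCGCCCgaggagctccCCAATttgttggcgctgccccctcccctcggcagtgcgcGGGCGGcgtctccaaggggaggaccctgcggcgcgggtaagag
Col4a4: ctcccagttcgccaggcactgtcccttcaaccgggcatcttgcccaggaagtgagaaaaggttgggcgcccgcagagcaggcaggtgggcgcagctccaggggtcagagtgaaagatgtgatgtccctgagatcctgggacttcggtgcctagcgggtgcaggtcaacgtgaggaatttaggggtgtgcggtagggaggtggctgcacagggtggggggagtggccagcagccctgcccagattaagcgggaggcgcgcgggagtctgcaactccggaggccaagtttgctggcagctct
Col4a6: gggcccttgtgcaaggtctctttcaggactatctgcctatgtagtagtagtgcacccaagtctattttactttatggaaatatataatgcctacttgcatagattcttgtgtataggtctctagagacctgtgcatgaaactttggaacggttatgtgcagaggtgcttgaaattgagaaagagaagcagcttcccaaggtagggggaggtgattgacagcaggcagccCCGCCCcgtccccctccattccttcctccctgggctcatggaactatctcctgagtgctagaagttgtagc
Col4a5: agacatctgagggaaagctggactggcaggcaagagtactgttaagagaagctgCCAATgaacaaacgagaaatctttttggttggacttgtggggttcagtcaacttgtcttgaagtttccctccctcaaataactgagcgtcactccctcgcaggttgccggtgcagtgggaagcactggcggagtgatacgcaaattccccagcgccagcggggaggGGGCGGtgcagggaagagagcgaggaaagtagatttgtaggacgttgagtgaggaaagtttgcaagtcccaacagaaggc
The window of the ubiquitous pair held GC boxes and a CCAAT box, and that of the glomerular pair held neither.

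RefSeq's table held 31 windows for 29 of the chains. A GC box on either strand was found in 20 of the 31, against 35.7% of the 32851 windows of all genes. A CCAAT box was found in 11, against 37.4% of all windows. TATAAA or its complement TTTATA was found in 3, against 13.6%, and none of these was a basement membrane chain. ACGTG or CACGT, the core that hypoxia-inducible factors recognise, was found in 4, against 19.6%, and the Col4a4 window was the only basement membrane window among them. These matches describe letters in a window only.

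Among the 30 tested chains, 1 was called higher under VHL-KO;SETD2-KO and 0 were called lower, at an unadjusted p under 0.05 in edgeR's quasi-likelihood test and a fold change of at least 1.5. Over all 14611 tested genes, 2.66% were called higher and 4.68% lower. The called chain was Col5a2, a fibrillar chain. At an adjusted p under 0.05 in edgeR, 0 chains were called, against 0.00684% of all tested genes, and the adjusted p-values of the chains ran from 0.625 to 0.984. DESeq2 gave a p for 27 chains and called 1 of them higher, against 2.87% of all genes, and 3 lower, against 7.79%. It gave an adjusted p for 5 chains only and called 0 of these, against 3.95% of the genes with one. The estimated change was above 0 for 13 chains and below 0 for 17, with a median log2 fold change of -0.17, against 0.0095 over all tested genes. Each VHL-KO;SETD2-KO library lay above each VHL-KO library for 2 chains (Col5a2 and Col13a1), against 9.62% of all genes. The reverse held for 2 chains (Col5a3 and Col16a1), against 11.0%.

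**Figure D1:**
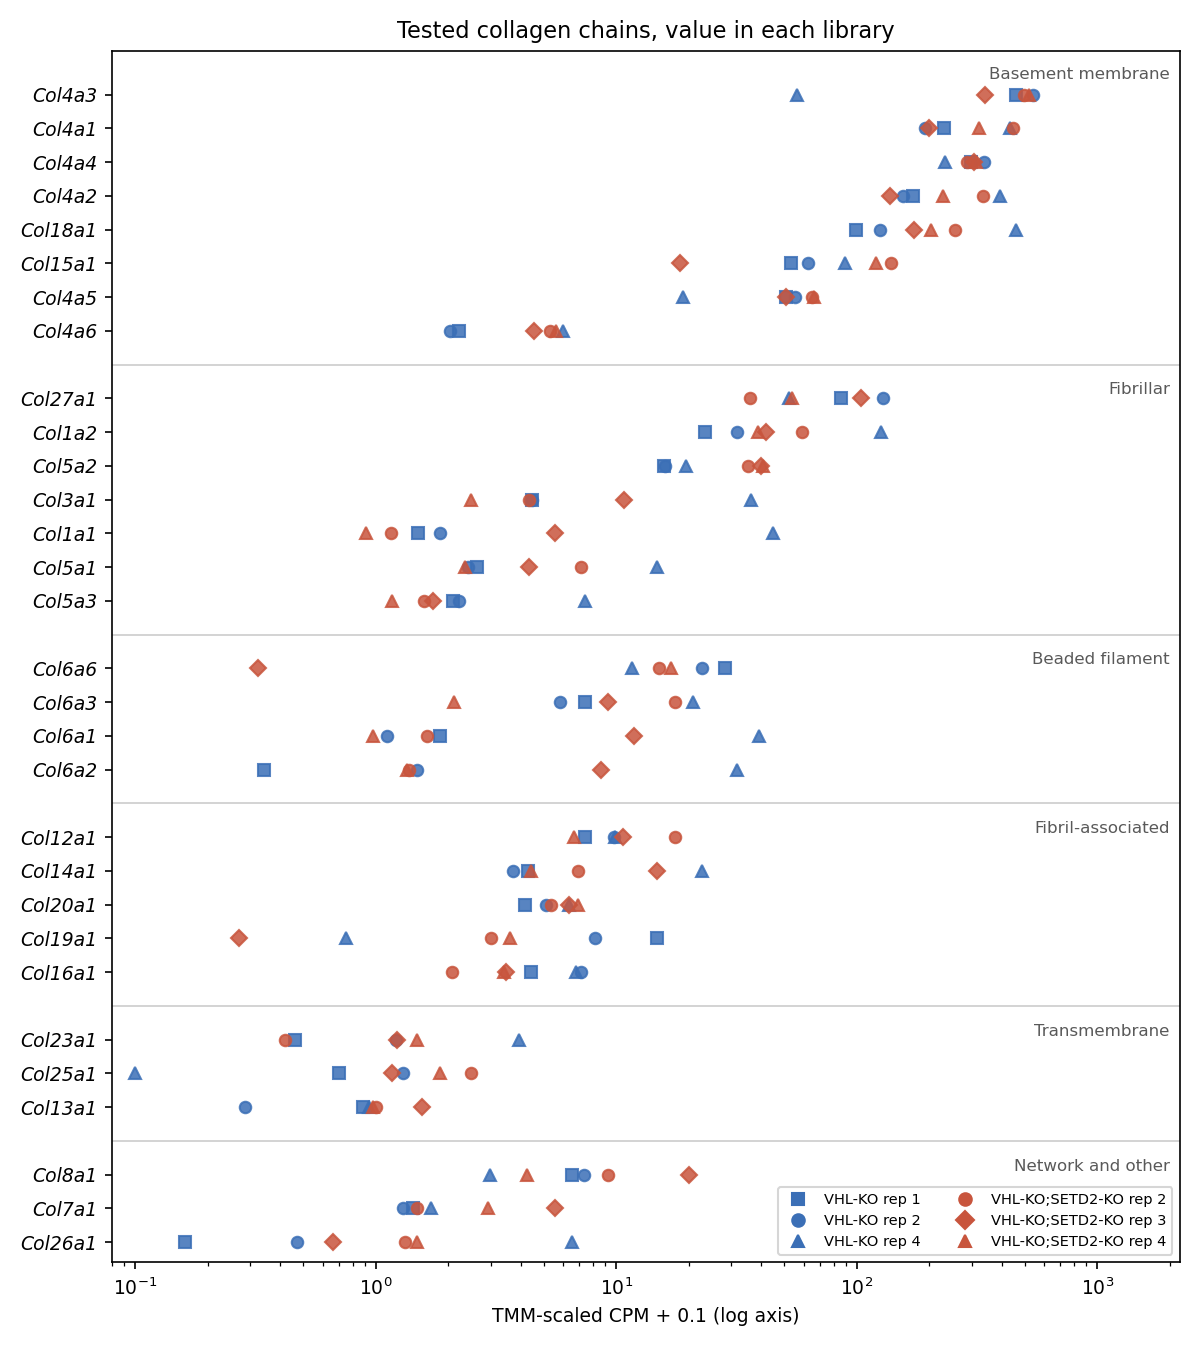
Level of each of the 30 tested chains in each library, as CPM scaled by TMM factors with 0.1 added, on a log axis. Squares, circles, diamonds and triangles stand for replicates 1, 2, 3 and 4 of either label (blue, VHL-KO; red, VHL-KO;SETD2-KO). Col5a2 is the chain whose red points all lie at 35.2 CPM or above and whose blue points all lie at 19.4 CPM or below, and the blue triangle is the outermost point of many rows.

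Without the library labelled VHL-KO replicate 4, 31 chains could be tested, and their changes were above 0 for 24 and below 0 for 7, with a median of 0.64 against 0.035 over all genes. In edgeR 5 chains (Col5a2, Col4a6, Col18a1, Col1a2 and Col26a1) were then called higher at the unadjusted p, against 8.29% of all genes, and 2 (Col19a1 and Col16a1) were called lower, against 7.15%. At an adjusted p under 0.05, 0 chains were called, against 0.00667% of all genes. Of these 31 chains, 10 lay higher in every VHL-KO;SETD2-KO library, against 20.1% of all genes, and 4 lay lower in every one, against 21.4%.

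**Figure D2:**
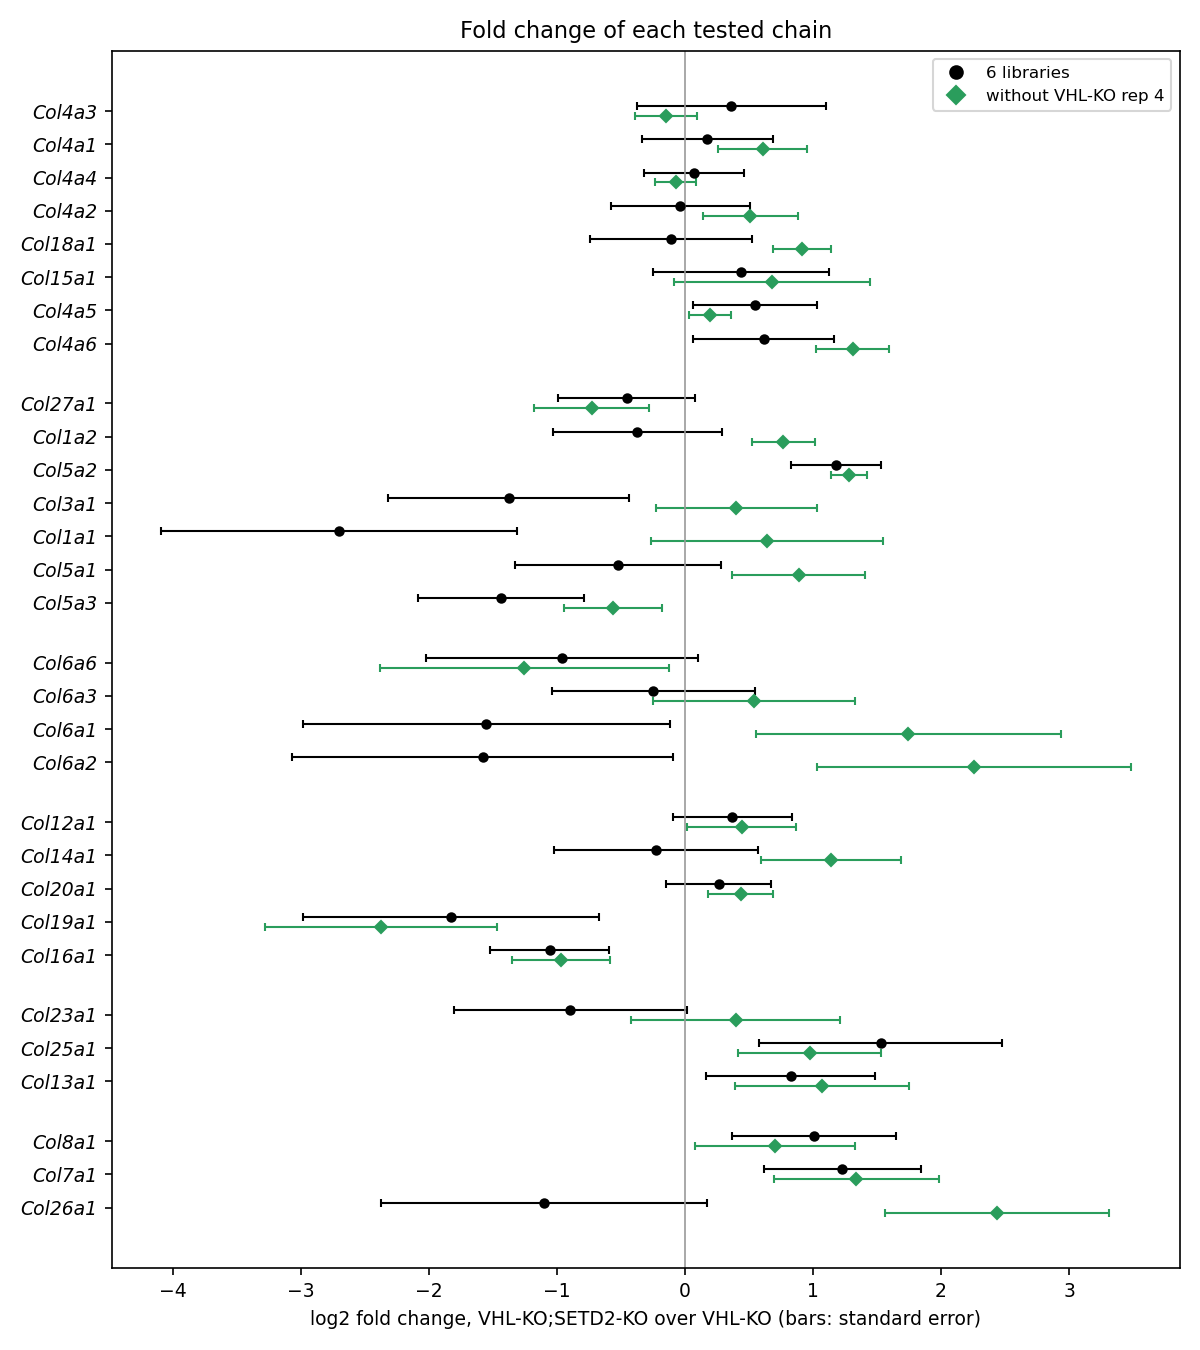
Log2 fold change of each tested chain, VHL-KO;SETD2-KO over VHL-KO, with its standard error in edgeR. Black circles use 6 libraries and green diamonds leave out VHL-KO replicate 4. Most green bars are the shorter ones, and for chains such as Col1a1 (-2.71 against 0.64) and Col6a2 (-1.58 against 2.26) the estimates lie on opposite sides of 0.

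Below, each series of values gives replicates 1, 2 and 4 of the VHL-KO label first and replicates 2, 3 and 4 of the VHL-KO;SETD2-KO label second, as CPM scaled by TMM factors. Fold changes are log2 values of the second group over the first, from edgeR.

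Basement membrane chains took 78.3% to 90.0% of all collagen counts in each library. Per kilobase of transcript, the basement membrane chains with the highest levels were Col4a3 (6.58 to 63.4 CPM per kb over the 6 libraries), Col4a1 (29.1 to 67.3), Col18a1 (17.7 to 82.1), Col4a2 (21.3 to 60.8) and Col4a4 (22.9 to 33.5). The ranges of these 5 chains overlapped, although Col4a2 lay below Col4a1 in each library. Col15a1 ranged from 3.54 to 26.8 CPM per kb and Col4a5 from 2.89 to 10.1, and Col4a6 was the lowest basement membrane chain at 0.292 to 0.885 CPM per kb.

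Col4a1, whose chain forms the network of almost all basement membranes, stood at 229, 193 and 434 CPM and at 445, 199 and 322 CPM. Its partner Col4a2 stood at 171, 156 and 392 CPM and at 334, 137 and 229 CPM. Both genes were highest in VHL-KO replicate 4 and VHL-KO;SETD2-KO replicate 2, and the groups overlapped. The log2 fold change was 0.17 ± 0.51 (SE) for Col4a1 (edgeR adjusted p = 0.909) and -0.04 ± 0.54 for Col4a2 (adjusted p = 0.984). These values were 0.61 ± 0.35 and 0.51 ± 0.37 without VHL-KO replicate 4, with edgeR adjusted p-values of 0.373 and 0.472, and the groups still overlapped.

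Col4a3, a chain of the glomerular network that is altered in Alport syndrome, stood at 458, 542 and 56.3 CPM and at 496, 339 and 521 CPM. Its exons overlap those of the antisense gene C430014B12Rik by 563 bases. Col4a4 stood at 298, 339 and 232 CPM and at 288, 308 and 313 CPM, the narrowest range among the type IV genes as a ratio of highest to lowest. Col4a5, which supplies the other chain of the same network, stood at 50.6, 55.4 and 18.9 CPM and at 65.2, 50.8 and 66.2 CPM. All 3 genes were lowest in VHL-KO replicate 4, by far the most for Col4a3, and the groups overlapped for each. The log2 fold changes were 0.36 ± 0.74, 0.07 ± 0.39 and 0.54 ± 0.48 (SE) for Col4a3, Col4a4 and Col4a5, with edgeR adjusted p-values of 0.865, 0.957 and 0.719. Leaving out that library gave -0.15 ± 0.24, -0.08 ± 0.16 and 0.19 ± 0.16, with smaller standard errors and edgeR adjusted p-values of 0.767, 0.823 and 0.542.

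Col4a6, which pairs with Col4a5 in the basement membranes of Bowman's capsule and of some tubules, stood at 2.12, 1.94 and 5.88 CPM and at 5.20, 4.44 and 5.51 CPM. All VHL-KO;SETD2-KO libraries lay above VHL-KO replicates 1 and 2 but below VHL-KO replicate 4. Its change was 0.61 ± 0.55 (SE) with an edgeR adjusted p of 0.720. Without that library it was 1.31 ± 0.29, with an unadjusted p of 0.0039 and an adjusted p of 0.106 in edgeR.

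Col18a1, the gene of a proteoglycan whose carboxy-terminal fragment is endostatin, stood at 98.8, 124 and 459 CPM and at 257, 173 and 202 CPM. As with Col4a6, VHL-KO replicate 4 was the highest library and the other VHL-KO libraries were the lowest. The log2 fold change was -0.11 ± 0.63 (SE, edgeR adjusted p = 0.956) with that library and 0.92 ± 0.23 without it (unadjusted p = 0.00675, adjusted p = 0.125). Col15a1, which encodes a related proteoglycan of vessel and muscle basement membranes, stood at 52.9, 62.3 and 89.5 CPM and at 139, 18.3 and 120 CPM. Its values in VHL-KO;SETD2-KO replicates 2 and 4 exceeded every VHL-KO library, while that in replicate 3 was below them all. Its change was 0.44 ± 0.69 (SE, edgeR adjusted p = 0.825), and 0.68 ± 0.77 without VHL-KO replicate 4. The Col15a1 value was 0.94 without VHL-KO;SETD2-KO replicate 3 (unadjusted p = 0.0908 in edgeR) and 0.04 without VHL-KO;SETD2-KO replicate 2.

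Over the 8 basement membrane chains, 6 estimates were above 0, against 50.5% of all tested genes. In this class 0 chains were called, against 2.66% of all genes called higher and 4.68% lower. The median log2 fold change was 0.27, against 0.0095 over all genes. The median was 0.56 without VHL-KO replicate 4, and 2 chains (Col4a6 and Col18a1) were called higher at the unadjusted p, against 8.29% of all genes.

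The ratio within a head-to-head pair was computed from counts divided by transcript length. Col4a2 over Col4a1 was 0.764, 0.830 and 0.927 in the VHL-KO libraries and 0.769, 0.708 and 0.729 in the VHL-KO;SETD2-KO libraries, although the level of each gene varied more than 2-fold between libraries. Col4a4 over Col4a3 was 0.552, 0.529 and 3.48 in the former and 0.491, 0.768 and 0.509 in the latter, so that the balance of this pair was inverted in VHL-KO replicate 4. In the same library, Col4a3 deviated from VHL-KO replicates 1 and 2 by a log2 value of -3.14, where the median was 0.81 for genes of like GC content (50% to 55%) and -1.71 for transcripts of like length (over 8000 bases). Col4a4, of the same GC and length classes, deviated by -0.46. Col4a5 over Col4a6 was 24.3, 29.1 and 3.26 in the VHL-KO libraries and lay between 11.6 and 12.8 in all VHL-KO;SETD2-KO libraries. The VHL-KO;SETD2-KO values of this ratio fell between those of VHL-KO replicate 4 and of VHL-KO replicates 1 and 2.

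**Figure D3:**
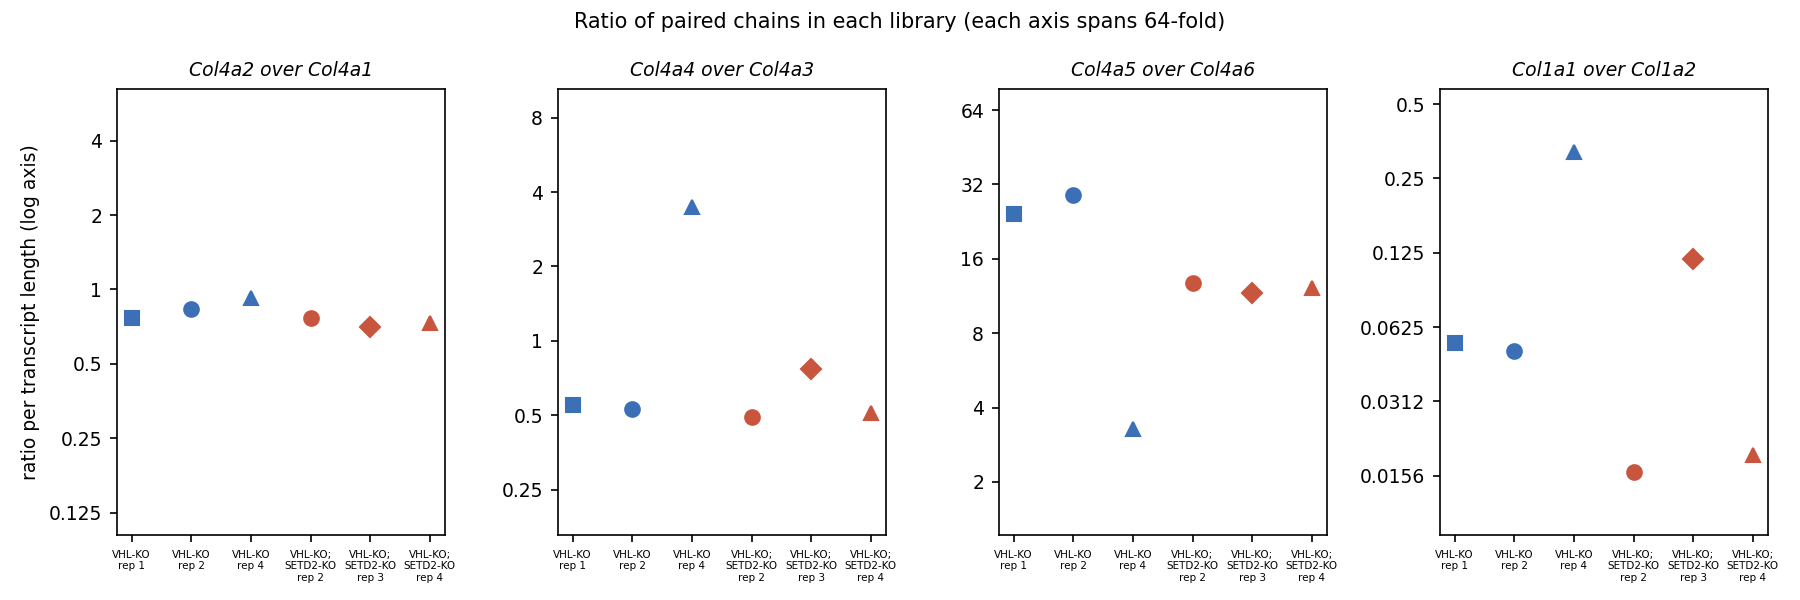
Ratio of paired chains in each library, from counts per transcript length, on log axes that each span 64-fold. Col4a2 over Col4a1 stays between 0.708 and 0.927, whereas Col4a4 over Col4a3 reaches 3.48 and Col4a5 over Col4a6 falls to 3.26 in VHL-KO replicate 4, and Col1a1 over Col1a2 is highest in VHL-KO replicate 4 (0.320) and VHL-KO;SETD2-KO replicate 3 (0.118).

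Of the fibrillar chains 8 reached the count minimum and 7 were tested. Col5a2, a chain of type V collagen that starts and limits the growth of type I fibrils, had the lowest unadjusted p of all collagen chains. It stood at 15.7, 15.9 and 19.4 CPM and at 35.2, 39.7 and 40.4 CPM. The groups did not overlap, and the spread within each was narrow (17.0 ± 2.09 and 38.5 ± 2.83 CPM, SD, n = 3 each). The log2 fold change was 1.18 ± 0.35 (SE), with an unadjusted p of 0.00999 and an adjusted p of 0.625 in edgeR, and DESeq2 gave 1.13 with an unadjusted p of 0.0136. It was 1.28 ± 0.14 without VHL-KO replicate 4 (unadjusted p = 9.5e-05, adjusted p = 0.0776 in edgeR). With the replicate number as a block it was 1.10, with an unadjusted p of 0.325 in edgeR, so that the call was lost. In VHL-KO replicate 4 Col5a2 deviated from VHL-KO replicates 1 and 2 by 0.29, while the median gene deviated by -0.92 in its GC class (45% to 50%) and by -1.44 in its length class (6000 to 8000 bases).

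The other chains of type V collagen did not share this pattern. Col5a1, which joins Col5a2 in the common type V trimer, stood at 2.54, 2.31 and 14.7 CPM and at 7.0, 4.22 and 2.25 CPM. The groups overlapped, and the log2 fold change was -0.53 ± 0.80 (SE, edgeR adjusted p = 0.821), or 0.89 ± 0.52 without VHL-KO replicate 4. Col5a3, a rarer type V chain, stood at 2.00, 2.12 and 7.28 CPM and at 1.49, 1.63 and 1.06 CPM. Every VHL-KO;SETD2-KO library lay below every VHL-KO library, with a log2 fold change of -1.44 ± 0.65 (SE, unadjusted p = 0.0564 in edgeR and 0.0309 in DESeq2). The Col5a3 value was -0.56 ± 0.38 without VHL-KO replicate 4. Col3a1, the type III chain and the neighbour of Col5a2 on chromosome 1 (chr1:45311538-45349706, plus strand, beside chr1:45374321-45503282, minus strand), stood at 4.36, 4.34 and 36.3 CPM and at 4.24, 10.6 and 2.38 CPM. The groups overlapped for Col3a1, with a log2 fold change of -1.38 ± 0.94 (SE, edgeR adjusted p = 0.651) that turned to 0.40 ± 0.63 without VHL-KO replicate 4 and to -0.39 without VHL-KO;SETD2-KO replicate 3 as well.

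Type I collagen, the main fibre of scar tissue, is made of chains from Col1a1 and Col1a2. Col1a1 stood at 1.39, 1.75 and 44.8 CPM and at 1.06, 5.45 and 0.814 CPM. VHL-KO replicate 4 held more than all the other libraries together, and VHL-KO;SETD2-KO replicate 3 came next. Its log2 fold change was -2.71 ± 1.39 (SE, edgeR adjusted p = 0.625) and turned to 0.64 ± 0.91 without VHL-KO replicate 4, and back to -0.73 without VHL-KO;SETD2-KO replicate 3 as well. Col1a2 stood at 23.2, 31.5 and 126 CPM and at 59.2, 41.7 and 38.8 CPM. Its log2 fold change was -0.37 ± 0.66 (SE, edgeR adjusted p = 0.840) and turned to 0.77 ± 0.25 without that library (unadjusted p = 0.0205, adjusted p = 0.180), with all VHL-KO;SETD2-KO libraries then above both VHL-KO libraries. Per transcript length, Col1a1 stood at 0.0540, 0.0503 and 0.320 of Col1a2 in the VHL-KO libraries and at 0.0162, 0.118 and 0.0189 of it in the VHL-KO;SETD2-KO libraries, although the secreted type I trimer holds more of the Col1a1 chain than of the Col1a2 chain.

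Col27a1, a fibrillar chain best known from cartilage, stood at 85.4, 128 and 52.0 CPM and at 35.9, 104 and 53.4 CPM. The groups overlapped, and the log2 fold change was -0.46 ± 0.54 (SE, edgeR adjusted p = 0.778), or -0.73 ± 0.45 without VHL-KO replicate 4. Leaving out single libraries gave values from -0.98 (VHL-KO;SETD2-KO replicate 3) to -0.09 (VHL-KO replicate 2). Col24a1, a fibrillar chain of bone and cornea, held too few counts for the test, at 0.484, 0.277 and 0 CPM and at 0.955, 2.30 and 0.501 CPM. All its VHL-KO;SETD2-KO values lay above the VHL-KO values, of which those of replicates 2 and 4 rest on 3 and 0 counts. Without VHL-KO replicate 4 it could be tested, with a log2 fold change of 1.68 ± 0.82 (SE, edgeR adjusted p = 0.306).

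Of the 7 tested fibrillar chains 1 estimate was above 0 and 6 were below, with a median log2 fold change of -0.53. Leaving out VHL-KO replicate 4, 6 of 8 were above 0 and the median was 0.70. Without VHL-KO;SETD2-KO replicate 3 as well, 3 of 7 were above 0 and the median was -0.39, so the direction for the class turned on which of these libraries were kept.

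For basement membrane against fibrillar chains, the levels of the 8 members of each class were summed within a library. The basement membrane sum was 1360, 1473 and 1688 CPM in the VHL-KO libraries (1507 ± 166, SD, n = 3) and 2030, 1230 and 1779 CPM in the VHL-KO;SETD2-KO libraries (1680 ± 409). The fibrillar sum was 135, 186 and 301 CPM in the former (207 ± 84.9) and 145, 209 and 139.7 CPM in the latter (165 ± 38.8). The groups overlapped for both sums. The log2 ratio of basement membrane to fibrillar chains was 3.33, 2.99 and 2.49 for VHL-KO (2.94 ± 0.42) and 3.81, 2.56 and 3.67 for VHL-KO;SETD2-KO (3.34 ± 0.69). The difference of 0.41 was smaller than the SD of either group, and VHL-KO;SETD2-KO replicate 3 lay with VHL-KO replicate 4 at the low end. The difference was 0.19 without VHL-KO replicate 4, 0.18 without VHL-KO;SETD2-KO replicate 2 and 0.80 without VHL-KO;SETD2-KO replicate 3. With the type IV chains alone it was 0.44, with Col1a1, Col1a2 and Col3a1 as the only fibrillar chains 0.31, and with the mean log2 CPM of each class in place of its sum 0.48. No p is given for these sums, since the classes were chosen with earlier results of these data known.

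**Figure D4:**
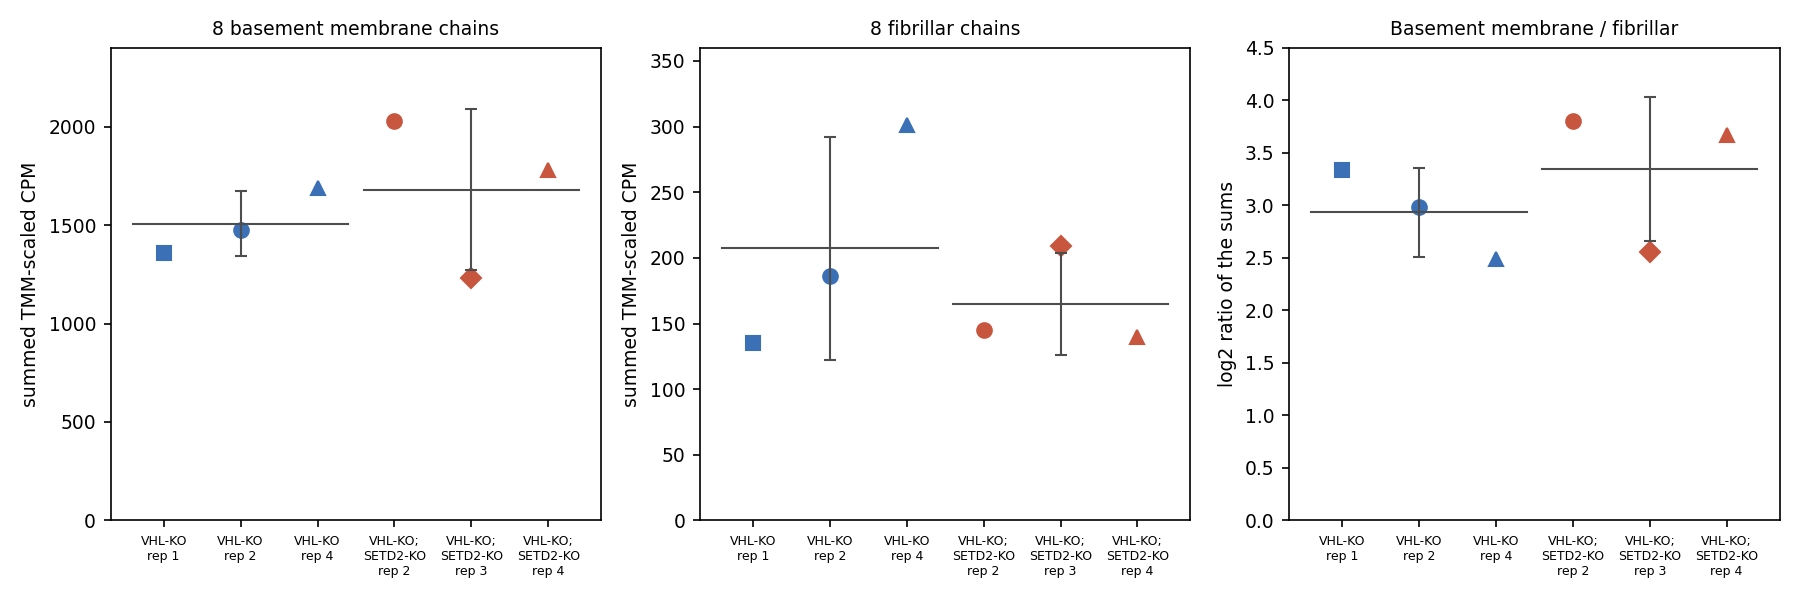
Summed CPM of the 8 basement membrane chains (left), of the 8 fibrillar chains (middle) and the log2 ratio of the sums (right) in each library, with the mean and SD of each group (n = 3). The ratio ranges from 2.49 to 3.33 under the VHL-KO label and from 2.56 to 3.81 under the VHL-KO;SETD2-KO label.

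Type VI collagen forms beaded filaments around cells, and 4 of its 6 genes were tested. Col6a1, which with Col6a2 supplies the short chains of every type VI monomer, stood at 1.75, 1.02 and 38.9 CPM and at 1.54, 11.7 and 0.877 CPM. Col6a2 stood at 0.242, 1.39 and 31.6 CPM and at 1.27, 8.54 and 1.25 CPM. Both were highest in VHL-KO replicate 4 and next highest in VHL-KO;SETD2-KO replicate 3, as Col1a1 and Col3a1 were, and the other libraries were at 1.75 CPM or below. Their log2 fold changes of -1.55 ± 1.43 and -1.58 ± 1.49 (SE, edgeR adjusted p = 0.728 and 0.733) turned to 1.75 ± 1.20 and 2.26 ± 1.23 without VHL-KO replicate 4, and without VHL-KO;SETD2-KO replicate 3 as well they were -0.22 and 0.75. Col6a3, the long chain of the monomer, stood at 7.32, 5.73 and 20.8 CPM and at 17.3, 9.11 and 2.00 CPM. The groups overlapped for Col6a3, with a log2 fold change of -0.25 ± 0.79 (SE, edgeR adjusted p = 0.915), or 0.54 ± 0.79 without that library. Col6a6, an alternative long chain, stood at 28.2, 22.5 and 11.5 CPM and at 14.9, 0.225 and 16.8 CPM. It was lowest in VHL-KO;SETD2-KO replicate 3, near the 3-count level of 0.169 CPM there, and otherwise varied within a narrower range. Its log2 fold change was -0.96 ± 1.07 (SE, edgeR adjusted p = 0.768), or -1.26 ± 1.13 without VHL-KO replicate 4.

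Fibril-associated chains sit on the surface of fibrils and carry interruptions in the helix, and 5 of the 6 members were tested. Col16a1, found close to basement membranes and fibrils, stood at 4.30, 7.02 and 6.72 CPM and at 1.96, 3.37 and 3.32 CPM. All VHL-KO;SETD2-KO libraries were below all VHL-KO libraries. The change was -1.06 ± 0.47 (SE), with an unadjusted p of 0.0526 and an adjusted p of 0.625 in edgeR, while DESeq2 gave an unadjusted p of 0.047. Without VHL-KO replicate 4 it was -0.97 ± 0.38 (unadjusted p = 0.0439, edgeR adjusted p = 0.233). Col19a1, a rare chain of basement membrane zones, stood at 14.6, 8.03 and 0.654 CPM and at 2.92, 0.169 and 3.51 CPM. VHL-KO replicates 1 and 2 were the highest libraries and VHL-KO;SETD2-KO replicate 3 was at the level of 3 counts. The estimate was -1.83 ± 1.16 (SE, unadjusted p = 0.152 in edgeR and 0.0488 in DESeq2), and -2.38 ± 0.91 without VHL-KO replicate 4 (unadjusted p = 0.0397, edgeR adjusted p = 0.225). It was smaller without VHL-KO replicate 1 (-0.98, unadjusted p = 0.447 in edgeR) and without VHL-KO;SETD2-KO replicate 3 (-1.28, unadjusted p = 0.282 in edgeR).

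Col12a1 and Col14a1, whose products bind type I fibrils, did not separate the groups. Col12a1 stood at 7.32, 9.70 and 9.80 CPM and at 17.5, 10.5 and 6.57 CPM, with a log2 fold change of 0.37 ± 0.46 (SE, edgeR adjusted p = 0.794). Col14a1 stood at 4.18, 3.60 and 22.6 CPM and at 6.84, 14.7 and 4.32 CPM, with a log2 fold change of -0.23 ± 0.80 (SE, edgeR adjusted p = 0.921) that turned to 1.14 ± 0.55 without VHL-KO replicate 4. For Col14a1 the library labelled VHL-KO replicate 4 was again the highest and VHL-KO;SETD2-KO replicate 3 the next. Col20a1, a minor member of the family, stood at 4.05, 4.99 and 6.25 CPM and at 5.25, 6.24 and 6.83 CPM, with a log2 fold change of 0.26 ± 0.41 (SE, edgeR adjusted p = 0.825).

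Transmembrane collagens and the remaining chains were scarce. Col13a1, found at cell adhesions, stood at 0.787, 0.185 and 0.840 CPM and at 0.902, 1.46 and 0.877 CPM. The groups did not overlap, but the nearest values were 0.840 and 0.877 CPM and the log2 fold change was 0.82 ± 0.66 (SE, edgeR adjusted p = 0.694). Col25a1, known from amyloid plaques and motor neurons, stood at 0.605, 1.20 and 0 CPM and at 2.39, 1.07 and 1.75 CPM, with a log2 fold change of 1.53 ± 0.95 (SE, edgeR adjusted p = 0.629). Its change was 2.41 without VHL-KO replicate 2 and 0.97 without VHL-KO replicate 4. Col23a1 was at 0.363, 1.11 and 3.83 CPM and at 0.318, 1.12 and 1.38 CPM, and its change of -0.90 ± 0.91 turned to 0.39 ± 0.82 without VHL-KO replicate 4. Of these 3 genes only Col13a1 had groups that did not overlap. Col8a1, a network-forming chain of vessels, stood at 6.41, 7.20 and 2.89 CPM and at 9.12, 19.96 and 4.13 CPM, with a log2 fold change of 1.01 ± 0.64 (SE, edgeR adjusted p = 0.637). Col7a1, the anchoring fibril chain, stood at 1.33, 1.20 and 1.59 CPM and at 1.38, 5.45 and 2.82 CPM, with a log2 fold change of 1.23 ± 0.61 (SE, unadjusted p = 0.079, edgeR adjusted p = 0.625). Its change was 0.62 without VHL-KO;SETD2-KO replicate 3 (unadjusted p = 0.329 in edgeR) and 1.61 without VHL-KO;SETD2-KO replicate 2 (unadjusted p = 0.0383 in edgeR). Col8a1 and Col7a1 were both highest in VHL-KO;SETD2-KO replicate 3, and the groups overlapped. Col26a1, which encodes a secreted protein with collagen repeats, stood at 0.0605, 0.369 and 6.44 CPM and at 1.22, 0.562 and 1.38 CPM. Its change of -1.10 ± 1.27 turned to 2.44 ± 0.88 without VHL-KO replicate 4 (unadjusted p = 0.0323, edgeR adjusted p = 0.209), where the VHL-KO side rests on 1 and 4 counts.

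The members that were not tested were Col24a1, Col6a4, Col6a5, Col9a3, Col17a1 and Col8a2. Apart from Col24a1 in VHL-KO;SETD2-KO replicates 2 and 3 and Col8a2 in VHL-KO replicate 4 (2.15 CPM), the highest value of any of them was 0.564 CPM (Col6a4 in VHL-KO;SETD2-KO replicate 4). The rows under the minimum were Col10a1, Col11a1, Col11a2, Col22a1, Col28a1, Col2a1, Col9a1 and Col9a2, with 0 to 9 counts each over all libraries. These include the type II, X and XI chains of cartilage and the type IX chains Col9a1 and Col9a2.

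Several chains moved with markers of other cells across libraries. The fibroblast and pericyte list (8 genes, 7 tested, 5 with an estimate above 0 and 1, Rgs5, called higher against 2.66% of all genes) summed to 69.8 to 365 CPM in the VHL-KO libraries and to 76.7 to 209.8 CPM in the VHL-KO;SETD2-KO libraries. Without VHL-KO replicate 4, 8 of 8 estimates were above 0 and 3 genes were called higher, against 8.29% of all genes. The median log2 fold change of the list was 0.51 with that library and 1.37 without it. Acta2, the smooth muscle actin of contractile stromal cells, stood at 3.75, 6.74 and 104 CPM and at 10.6, 30.1 and 9.39 CPM, and Tagln stood at 3.03, 4.62 and 124 CPM and at 9.23, 35.3 and 8.89 CPM. VHL-KO replicate 4 and then VHL-KO;SETD2-KO replicate 3 were the highest libraries for Acta2 and Tagln, as for Col1a1, Col3a1, Col6a1, Col6a2 and Col14a1. Dcn and Lum, markers of matrix fibroblasts, were at 6.72 and 0.654 CPM in VHL-KO replicate 4, close to their levels in VHL-KO replicate 2 (6.74 and 0.554 CPM). The rest of the list did not follow this order either. Pdgfra (35.9 CPM) and Pdgfrb (115 CPM) were highest in VHL-KO;SETD2-KO replicate 2, Postn was lowest in VHL-KO replicate 4 (0.280 CPM), and Rgs5 was highest in VHL-KO;SETD2-KO replicate 3 (62.1 CPM). The collecting duct list (6 genes, 3 with an estimate above 0 and 0 called) summed to 62.1, 81.2 and 489.9 CPM and to 89.2, 268 and 102 CPM, with the same 2 libraries highest as for Acta2 and Tagln. Of its members, Aqp2, Aqp3, Avpr2 and Slc4a1 were highest in VHL-KO replicate 4 and next in VHL-KO;SETD2-KO replicate 3, whereas Scnn1g (15.8 and 44.0 CPM in these libraries) and Atp6v1b1 (48.8 and 89.5 CPM) were highest in the latter. The list of the thick limb and distal tubule (7 genes, 4 with an estimate above 0 and 1, Kcnj1, called higher) summed to 2085, 3015 and 7564 CPM and to 2321, 5799.9 and 2803 CPM, with the same libraries highest, through Umod, Slc12a3, Cdh16 and Pvalb but not Slc12a1, Kcnj1 and Egf. Without VHL-KO replicate 4, 5 of 6 collecting duct estimates were above 0 and 3 genes were called higher. The median of that list was -0.13 with the library and 1.93 without it. For the thick limb and distal tubule, 6 of 7 were then above 0 and 2 called higher. Of all genes 8.29% were called higher without that library and 2.66% with it. The part of stromal, thick limb, distal tubule or collecting duct cells, or of GC content or transcript length, in the values of the chains named above was not tested.

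The podocyte list had 7 of 7 estimates above 0, with 4 genes called higher at the unadjusted p, against 2.66% of all genes, and it summed to 1514, 2057 and 2172 CPM and to 5097, 2075 and 4540 CPM. The sum of Col4a3, Col4a4 and Col4a5, the chains podocytes place in the glomerular membrane, was 806, 936 and 307 CPM and 850, 698 and 901 CPM. VHL-KO;SETD2-KO replicates 2 and 4 thus exceeded every VHL-KO library in the podocyte list but not in the glomerular chains, where VHL-KO replicate 2 was the highest. The endothelial list had 7 of 7 estimates above 0 and 0 called, at 1971, 2453 and 1510 CPM and 5629, 1896 and 4832 CPM. Col15a1 was higher in VHL-KO;SETD2-KO replicates 2 and 4 and lowest in replicate 3. Col4a1 and Col4a2 summed to 400.0, 349 and 826 CPM and to 779, 336 and 550.3 CPM, lowest in VHL-KO;SETD2-KO replicate 3 and highest in VHL-KO replicate 4, where the endothelial list was lowest. The proximal tubule list had 7 of 8 estimates below 0, with 4 genes called lower at the unadjusted p, against 4.68% of all genes, and summed to 4941 to 7129 CPM in the VHL-KO;SETD2-KO libraries against 11549 to 21870 CPM in the VHL-KO libraries. Without VHL-KO replicate 4, 7 of 7 podocyte and 7 of 7 endothelial estimates were above 0. Of these lists 4 podocyte and 0 endothelial genes were then called higher, against 8.29% of all genes. For the proximal tubule 7 of 8 were below 0 and 6 genes were called lower, against 7.15%. The part of glomerular, endothelial or tubular cells in the values of the chains was not tested.

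**Figure D5:**
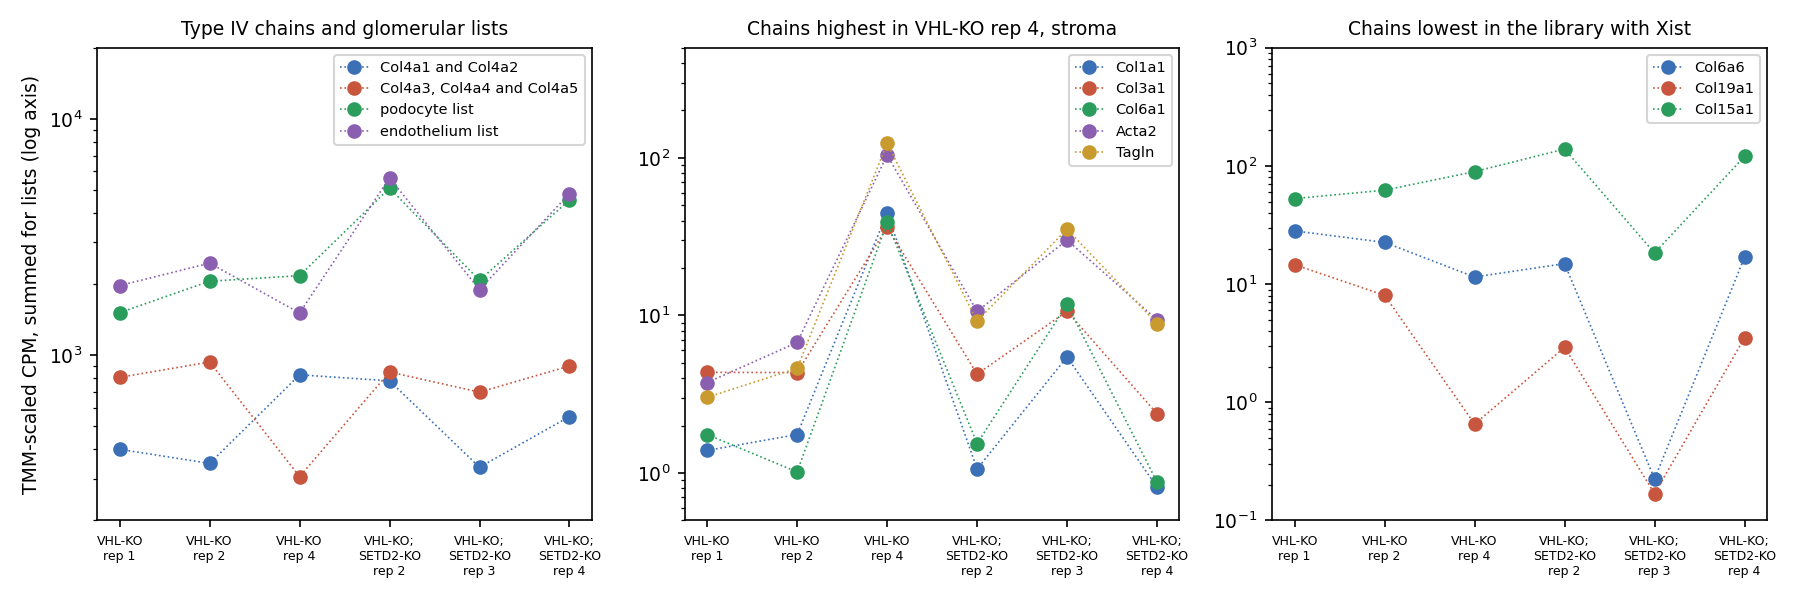
Chains and cell type markers in each library, as CPM on log axes, summed where a list is named. Dotted lines only join the points of the same gene or list. The middle panel shows Col1a1, Col3a1 and Col6a1 peaking with Acta2 and Tagln in VHL-KO replicate 4. The other genes of the fibroblast and pericyte list, which are not drawn, were highest in other libraries. The right panel shows Col6a6 (0.225 CPM), Col19a1 (0.169 CPM) and Col15a1 (18.3 CPM) at their lowest in VHL-KO;SETD2-KO replicate 3, the library with Xist.

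Genes that fold, trim, cross-link, break down or bind collagen were read from a list of 51, of which 41 were tested. In edgeR 21 estimates were above 0 and 20 below, 2 genes were called higher and 0 lower at the unadjusted p, against 2.66% and 4.68% of all tested genes, and 0 were called at an adjusted p. Loxl2, a lysyl oxidase that cross-links type IV collagen, stood at 8.35, 7.11 and 14.4 CPM and at 26.4, 17.0 and 19.8 CPM, with a log2 fold change of 1.08 ± 0.43 (SE, unadjusted p = 0.0356, edgeR adjusted p = 0.625). Colgalt2, which adds galactose to hydroxylysine, stood at 18.2, 25.4 and 16.8 CPM and at 47.0, 30.6 and 43.3 CPM, with a log2 fold change of 1.00 ± 0.39 (SE, unadjusted p = 0.0324, edgeR adjusted p = 0.625). For both genes every VHL-KO;SETD2-KO library was above every VHL-KO library. P3h2, a prolyl hydroxylase, also lay higher in every VHL-KO;SETD2-KO library, at 50.04, 71.5 and 49.7 CPM and 87.0, 129 and 82.0 CPM, with a log2 fold change of 0.80 ± 0.40 (SE). Plod2, a lysyl hydroxylase of the telopeptides, was separated in the same way, at 46.4, 50.4 and 12.5 CPM and 82.1, 71.4 and 71.4 CPM, with a log2 fold change of 1.04 ± 0.55 (SE, edgeR adjusted p = 0.625). P4hb, a subunit of the prolyl 4-hydroxylase of collagen, was separated in the other direction, at 505, 494 and 1577 CPM and 403, 472 and 403 CPM, with a log2 fold change of -1.01 ± 0.57 (SE), or -0.23 ± 0.17 without VHL-KO replicate 4. These 4 genes higher and 1 lower of 41 stand against 9.62% and 11.0% of all tested genes. The count of genes called in either direction at the unadjusted p (2) was 0 without VHL-KO replicate 1 and 0 without VHL-KO;SETD2-KO replicate 2. It was also 0 with the replicate number as a block. Without VHL-KO replicate 2 or without VHL-KO;SETD2-KO replicate 4 it was 1, and without VHL-KO;SETD2-KO replicate 3 it was 3. The lowest estimates were those of Loxl1 (-1.79 ± 1.45) and Adamts2 (-1.37 ± 1.15), both highest in VHL-KO replicate 4, at 27.7 and 5.23 CPM, and both above 0 without that library (2.68 and 1.32). By step, the median log2 fold change was -0.28 for folding and modification (16 tested), -0.20 for export and propeptide removal (5), 0.42 for cross-linking (6), 0.23 for breakdown and its inhibitors (8) and 0.61 for receptors (6). Without VHL-KO replicate 4 these medians were 0.56, 1.10, 0.92, 0.96 and 0.53, so that the direction of the first and second of these steps turned on that library. Without VHL-KO replicate 4, 33 of 42 estimates were above 0, against 53.1% of all genes, 16 genes were called higher and 0 lower at the unadjusted p, against 8.29% and 7.15% of all genes, and 0 were called at an adjusted p, so that this list, like the chains, shifted upwards when that library was left out.

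When VHL-KO;SETD2-KO replicate 3 was left out as well, a choice made after the data had been seen, 2 libraries remained in each group. In edgeR 9 chains were then called higher at the unadjusted p, against 13.4% of all genes, and 4 lower, against 10.4%. In this smaller set 14 chains lay higher in both VHL-KO;SETD2-KO libraries than in both VHL-KO libraries, against 32.7% of all genes, and 7 lay lower, against 32.4%. At an adjusted p under 0.05, 11 chains were called, against 20.2% of all genes. Of the basement membrane chains these were Col4a1 (0.86), Col4a2 (0.78), Col4a6 (1.40), Col15a1 (1.17) and Col18a1 (1.04), all with log2 fold changes above 0. Col4a3 (0.03), Col4a4 (-0.08) and Col4a5 (0.31), the glomerular chains, were not called. Of the fibrillar chains Col5a2 (1.26) and Col1a2 (0.85) were above 0 and Col27a1 (-1.25) was below. The others were Col26a1 (2.78), Col6a6 (-0.68) and Col19a1 (-1.83).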

How the data were processed

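RNA-seq had been done on PTECs of 6 mice. The authors made directional libraries for paired-end Illumina sequencing. They deposited the table of raw read counts by gene symbol, with no normalization. The submitters' processing notes name HISAT2 2.0.4 and the build GRCm38; the counting program, its annotation and its use of strand are not given in the sources used here, so reads where genes overlap on opposite strands may have gone to either gene. The study's own calls used DESeq2 with thresholds of 0.05 on p and 1.5 on the fold change. Per-sample columns not used numbered 0.

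The quasi-likelihood test of edgeR 4.0.16 (R 4.3.3) was run with TMM factors on the deposited counts of the 14611 genes kept by filterByExpr, with genotype as the single factor and Benjamini-Hochberg adjustment over all of them. CPM are scaled by TMM factors. Totals of 11168552 to 17883466 counts put the level of 3 counts, taken as the smallest detectable signal, at 0.159 to 0.280 CPM. That level reflects counting error alone, as the reads carry no molecular identifiers and are not independent molecules. P-values measure the spread between the libraries. As each mouse gave a single library, differences between mice and between library preparations cannot be told apart in that spread. Basement membrane and fibrillar sums used every member. The scripts were tested on simulated data with known changes, with success required only at a lower dispersion than that of these data. That test checks the code and not the power of this comparison. Gene positions and transcript lengths are from GENCODE M21 and promoter windows from RefSeq (GRCm38.p6).

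All tested basement membrane and fibrillar chains were named with every library's value, as were other chains with a mean of at least 1 CPM or an unadjusted p under 0.05, and Col13a1 was named after its values were seen. Pathway genes were named at an unadjusted p under 0.05 or for the largest fold changes, and P3h2, P4hb and single markers were named after their values were seen. The members and lists were chosen with earlier results of these data known. The alternatives were DESeq2 1.42.0, limma-voom (limma 3.58.1), DESeq2's size factors in edgeR, leaving the filter out, requiring at least 10 counts in every library, library sizes without the 20 highest genes, the replicate number as a block, other definitions of the classes and leaving out each library in turn. Leaving out VHL-KO replicate 4 together with VHL-KO;SETD2-KO replicate 3 was added after the data had been seen. Sample pairs were not taken as matched, since the labels share only the numbers 2 and 4.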

Additional observations from a re-analysis of the deposited data

How the results depend on the processing

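The count of chains called higher (1) was 2 with no filter on low counts, 2 with at least 10 counts in every library and 1 with DESeq2, limma-voom and the other scalings. The count called lower (0) was 3 with DESeq2, 1 with DESeq2's size factors in edgeR, 1 with no filter and 2 with at least 10 counts in every library. With that last filter, 1 chain rather than 2 lay higher in every VHL-KO;SETD2-KO library. Leaving out single libraries, the counts ranged from 1 to 5 chains called higher and 0 to 2 called lower. From 3 to 10 chains lay higher in every VHL-KO;SETD2-KO library and 2 to 4 lower in every one. From 0 to 16 pathway genes were called in either direction. The highest counts of chains called higher, of chains higher in every library and of pathway genes came without VHL-KO replicate 4. In that fit 8.29% of all genes were called higher and 20.1% lay higher in every VHL-KO;SETD2-KO library. With all libraries these shares were 2.66% and 9.62%. The median of the fibrillar chains ranged from -0.98 to 0.70 over these fits, with the one value above 0 coming without VHL-KO replicate 4. That of the basement membrane chains ranged from 0.077 to 0.56, and the class ratio difference from 0.18 to 0.80, all above 0. Without VHL-KO replicate 4 and VHL-KO;SETD2-KO replicate 3, 9 chains were called higher, 4 lower and 11 at an adjusted p, 14 lay higher (against 32.7% of all genes) and 7 lower (against 32.4%) in every VHL-KO;SETD2-KO library, 19 of 39 pathway genes were called higher (against 13.4%), the basement membrane median was 0.82 and the fibrillar median was -0.39, below 0 again. The causes were not tested.

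With the replicate number as a block, edgeR called 0 chains higher, 1 (Col1a1, -3.30) lower and 0 pathway genes higher. The share of all genes called in that fit is not given here, so these counts cannot be set beside it. Col4a2 (0.16) and Col19a1 (0.34) changed sign. The labels share only replicate numbers 2 and 4, and the deviations of same-numbered libraries correlated at 0.16 and -0.32 over 14611 genes, so the libraries are not known to be paired.

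Col5a2 kept its direction in every alternative run, with log2 fold changes from 1.10 to 1.28, but its unadjusted p under the replicate block was 0.325 in edgeR. Changes of sign in limma-voom were Col14a1 (0.14), Col18a1 (0.22), Col1a2 (0.015), Col26a1 (0.82) and Col6a2 (0.21). Col4a2, at -0.04 in the fit reported, was 0.045 with no filter, 0.015 with at least 10 counts in every library and 0.027 with library sizes without the 20 highest genes. Without both libraries named above, Col4a1 was 0.86 and the changes of sign were Col14a1 (0.52), Col18a1 (1.04), Col1a2 (0.85), Col23a1 (0.26), Col26a1 (2.78), Col4a2 (0.78), Col4a4 (-0.082), Col5a1 (0.94), Col6a2 (0.75), Col6a3 (0.57) and Col8a1 (-0.028). Leaving out single libraries also changed the sign, with lowest and highest log2 fold changes, of Col12a1 (-0.051 to 0.67), Col14a1 (-0.83 to 1.14), Col18a1 (-0.44 to 0.92), Col1a1 (-4.06 to 0.64), Col1a2 (-0.74 to 0.77), Col23a1 (-1.38 to 0.39), Col26a1 (-1.66 to 2.44), Col3a1 (-2.15 to 0.40), Col4a1 (-0.11 to 0.61), Col4a2 (-0.37 to 0.51), Col4a3 (-0.15 to 0.81), Col4a4 (-0.075 to 0.20), Col5a1 (-0.97 to 0.89), Col6a1 (-3.49 to 1.75), Col6a2 (-3.10 to 2.26) and Col6a3 (-0.997 to 0.54). Col8a1 ranged from 0.27 to 1.40 over these fits. Low levels limit Col13a1, Col23a1, Col25a1 and Col26a1, which are near the level of 3 counts in some libraries.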
